A study of Mus musculus with 29 samples.

Results

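Genes that fold proteins in the endoplasmic reticulum (ER), or that sense and answer ER stress, were followed in bulk RNA sequencing of the mouse aortic arch. The set is a named list of 34 genes, matched by symbol to 1 row in each library's table of 51456 gene symbols, by a rule that uses no measured value, although the list was drawn up with earlier results of these data known. A filter on low values (at least 1 in at least 9 of the 29 libraries) kept 33 of the 34, and the exception was Derl3, a subunit of the degradation channel. Its group means were 0.361 ± 0.267 (SD, n = 10) in WT, 0.563 ± 0.205 (SD, n = 9) in Vehicle and 0.587 ± 0.334 (SD, n = 10) in Scl-Ab.

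All mice were male C57BL/6 with an age label of 14 weeks, kept on chow, from a safety study of an antibody against sclerostin (Scl-Ab), a secreted inhibitor of Wnt signalling. Vehicle (9 libraries) means apolipoprotein E knockout (ApoE KO) with injections of vehicle and a pump under the skin that delivered AngII, the pressor hormone angiotensin II, from a solution of 15.27 mg/mL at a rate of 0.11 µL/hr. Scl-Ab (10 libraries) means the same genotype and pump with Scl-Ab injected under the skin at 10 mg/kg once a week for 4 weeks. WT (10 libraries) means wild-type mice with vehicle in both pump and injections. The protocol names 9 WT mice, so n counts libraries. The pumps were placed at about 14 weeks of age, so tissue was taken later than the age label. The loss of Apoe and AngII come together in both ApoE KO groups and cannot be told apart. Nothing in the labels says outright that each library came from its own mouse, so p-values measure the spread between libraries. In whole tissue, fewer cells of a type and less RNA per cell cannot be told apart.

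The ER is where secreted and membrane proteins enter the secretory route and fold, and in the artery wall the load includes collagen, elastin and other matrix made by smooth muscle cells and fibroblasts. When unfolded protein builds up, the sensors IRE1-alpha (Ern1), PERK (Eif2ak3) and ATF6 (Atf6) are released from the chaperone BiP (Hspa5). IRE1-alpha splices the Xbp1 mRNA, PERK slows translation and favours that of Atf4, and cleaved ATF6 enters the nucleus. The resulting transcription factors raise chaperones, disulfide isomerases and the machinery that draws misfolded protein out of the ER for degradation. ATF4 also induces Ddit3 (CHOP), a factor tied to cell death, and Trib3, which feeds back on the pathway. Gene-level values do not separate spliced from unspliced Xbp1 and do not measure sensor activity.

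The DNA letters that these factors read are shown first because they mark a group within the set. Promoters from RefSeq (GRCm38.p6, 250 bases before to 50 after the start) were matched for 28 of the 34 genes. The ER stress response element is CCAAT, then any 9 bases, then CCACG, on either strand. It was found in 9 of the 28 promoters (32.1%), against 35 of all 27025 promoters (0.130%). The sequences below lie upstream of the RefSeq start used, 1 per symbol, read 5′ to 3′ on the gene's strand, and the capitals mark the element. For Hspa5 the GENCODE gene model begins earlier, at 34771970, so its stretch lies inside that model. They come from chr2:34772005-34772063 (Hspa5, plus strand), chr14:118937807-118937865 (Dnajc3, plus), chr12:17266471-17266529 (Pdia6, plus), chr15:88819500-88819558 (Creld2, plus), chr11:50325780-50325838 (Canx, minus), chr8:84847055-84847113 (Calr, minus) and chr19:6046512-6046570 (Syvn1, plus). They are set side by side because the same element stands before genes whose calls differ, and no test of 1 gene against another was run. In Creld2 and Calr the element is read on the opposite strand.
Hspa5: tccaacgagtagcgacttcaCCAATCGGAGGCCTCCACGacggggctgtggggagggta
Dnajc3: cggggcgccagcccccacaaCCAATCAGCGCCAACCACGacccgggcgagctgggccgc
Pdia6: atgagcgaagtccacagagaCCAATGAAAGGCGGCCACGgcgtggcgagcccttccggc
Creld2: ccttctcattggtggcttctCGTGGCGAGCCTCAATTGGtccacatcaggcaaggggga
Canx: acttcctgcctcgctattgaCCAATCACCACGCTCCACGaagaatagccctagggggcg
Calr: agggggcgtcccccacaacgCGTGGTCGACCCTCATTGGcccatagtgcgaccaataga
Syvn1: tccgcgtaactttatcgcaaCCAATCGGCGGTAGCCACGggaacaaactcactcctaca

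Of the other 2 promoters with this element, Derl3 held 1 copy and Hsp90b1 held 2 nonoverlapping copies. A second form, ATTGG, then any 1 base, then CCACG, was found in the windows of Dnajb11 and Herpud1, against 10 of all promoters (0.0370%). In Dnajb11 it lies after the start, and in Herpud1 before it. Herpud1 (chr8:94386297-94386407, plus strand) is printed because it also holds a C/EBP-ATF element (TGATGNAA, here on the opposite strand and in the first run of capitals), the kind bound by ATF4 and CHOP.
Herpud1: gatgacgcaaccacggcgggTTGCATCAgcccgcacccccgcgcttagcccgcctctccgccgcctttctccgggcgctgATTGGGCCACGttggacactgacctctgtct

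The C/EBP-ATF element was found in 2 of 28 promoters (Herpud1 and Trib3, 7.14%), against 4.06% of all promoters. The letters CCACG alone, which both response elements also contain, were in 21 of 28 (75.0%), against 32.7% of all. TGACGTGG, the unfolded protein response element, was in 0 of 28, against 0.607% of all. The E-box CACGTG, read by clock factors among others, was in 4 of 28 (14.3%: Calr, Derl3, Dnajb9 and Ssr1), against 7.24% of all. The D-box TTATGTAA, read by DBP and its relatives, was in 1 of 28 (3.57%, Sec61b), against 0.955% of all. Both strands were searched, a match is only a match of letters, and no match says only that the letters are not in this window.

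The libraries had similar depth. For a transcript 2 kb long, each unit of value corresponds to 31.7 to 43.5 fragments, and the sum of values ran from 496126 to 678907. Apoe, the deleted gene, was 264 ± 65.0 (SD, n = 10) in WT, 6.71 ± 1.70 (SD, n = 9) in Vehicle and 8.39 ± 2.79 (SD, n = 10) in Scl-Ab, with no overlap between WT and either ApoE KO group. Smooth muscle markers were present in every library (summed value of 12 genes at least 6050). WT replicate 24 stands apart: it was the highest WT library for 22 of the 34 genes, with Hspa5 at 369 against a WT median of 210.2 and Manf at 156 against 69.8. Its summed smooth muscle, macrophage and plasma cell markers lay inside the range of the other WT libraries, while its endothelial sum, 139, was the lowest in WT. WT replicate 29 was the lowest WT library for 18 genes. Among Vehicle libraries, replicate 5 was highest for 19 genes and replicate 4 lowest for 16. Among Scl-Ab libraries, replicate 13 was highest for 13 and replicate 17 lowest for 18. The meaning of the title codes is not in the labels: the final digits of the ApoE KO codes form the ranges 12 to 15 and 27 to 33 in both groups, while WT codes end in 1 to 10.

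**Figure D1:**
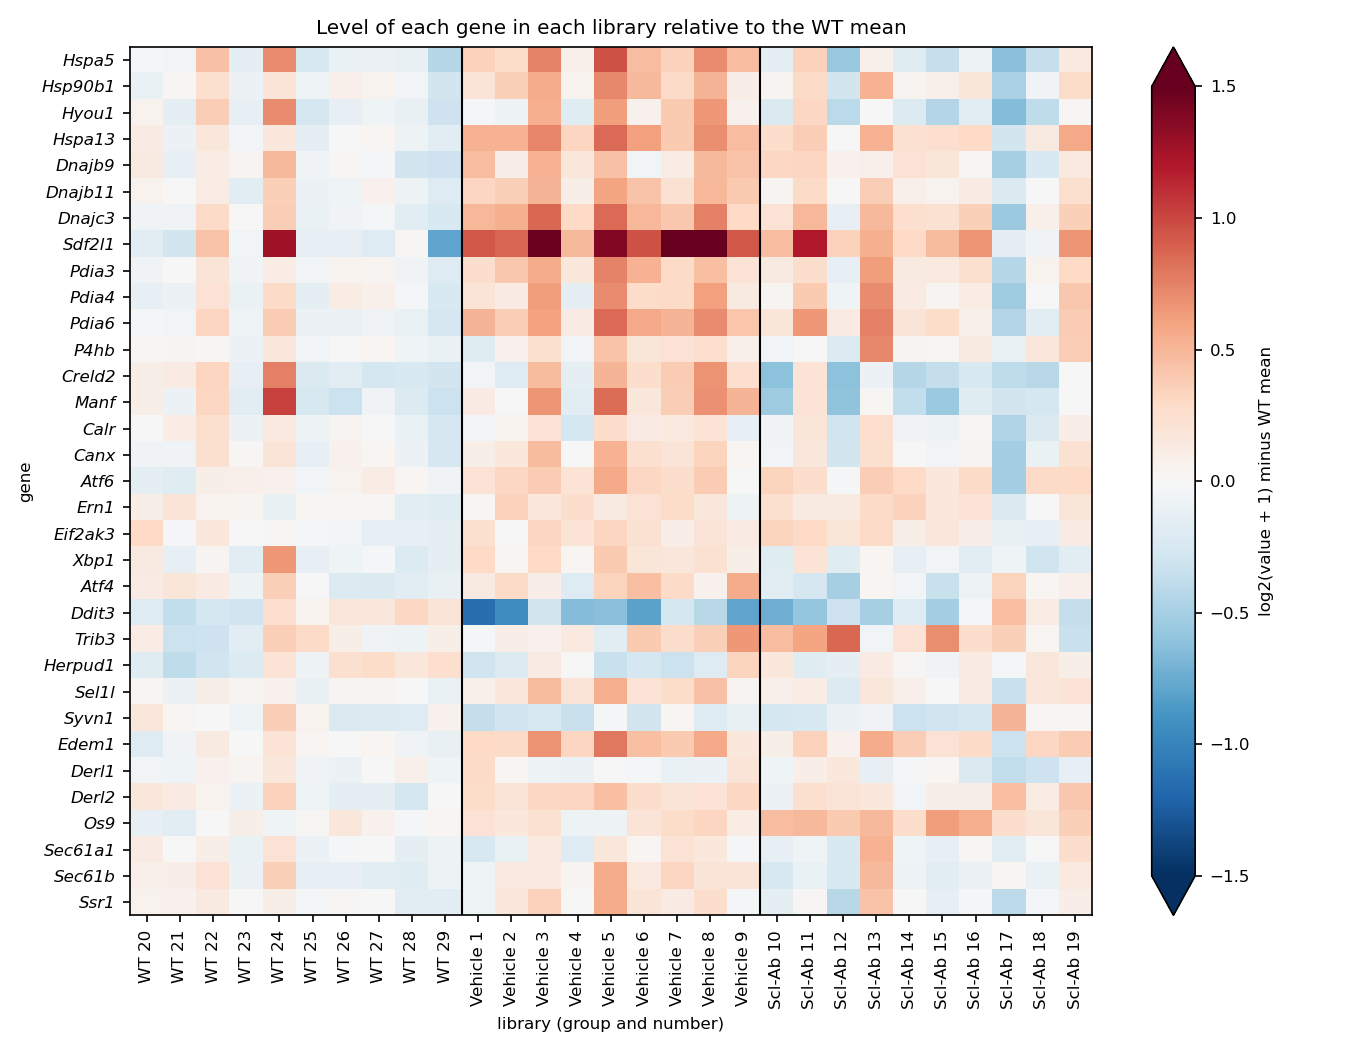
Level of 33 genes in each library, as log2(value + 1) minus the WT mean (colour; red above, blue below, values past 1.5 either way in the end colours), with libraries in columns by group and number and genes in rows by role. WT replicate 24 stands out in red among the WT columns, most Vehicle columns are red, and Ddit3 is blue across Vehicle.

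Vehicle against WT asked how these genes differ in the diseased aorta. By limma on log2(value + 1), 18 of 33 members were higher and 1 was lower (Ddit3), while 14 did not pass. Over all 13510 genes tested, 22.7% were called higher and 31% lower. The median log2 fold change of the members was 0.23, with 30 of 33 above 0, against a median of -0.04 and 45.2% above 0 over all genes. The share of higher among all calls moved from 42.2% (3065 higher, 4190 lower) to 51.7% with trimmed-mean (TMM) scaling and to 50.6% with trends on GC content and length removed. Members higher were then 24 of 33 and 25 of 32. Ddit3 was left out of the fit with trends removed because its symbol has 2 gene identifiers. No other member that passed in the main analysis changed direction under either, nor did Ddit3 with TMM scaling. The rank correlation of GC content with a library's deviation from the mean of all libraries, across genes, ran from 0.0355 to 0.220 in WT and from -0.341 to 0.239 in Vehicle, and its part in the counts beyond these values was not tested.

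Scl-Ab against Vehicle asked what the antibody changed in the diseased aorta. Here 11 of 33 members were lower, 1 was higher (Os9) and 21 did not pass, by limma. Over all genes, 4.8% were called lower and 2.64% higher. The share of higher among all calls was 35.4%, and 65.0% with libraries scaled to equal totals, where 2 members were lower and 0 higher. The members' median log2 fold change was -0.23, with 28 of 33 below 0, against -0.01 over all genes, of which 47.9% were above 0. This comparison shares the Vehicle libraries with the preceding one, so a high Vehicle level enters both, and the values below are each comparison's own.

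Few calls between Scl-Ab and Vehicle remained when a measure of clock phase was added to the fit. Dbp and Arntl, clock genes that peak at opposite times of day, were summarised as log2(Dbp + 1) minus log2(Arntl + 1). This index was 1.40 ± 2.04 (SD, n = 9) in Vehicle and 5.54 ± 1.02 (SD, n = 10) in Scl-Ab, and 4.51 ± 2.70 (SD, n = 10) in WT. Time of day is not in the labels. Vehicle and Scl-Ab values of the index meet only between 3.75 and 4.30, so a fit that includes it cannot tell index from treatment. With the index as a covariate, 0 of 33 members and 3 of 13510 genes were called between Scl-Ab and Vehicle, and the members' median was -0.12. In that fit 5 members had an unadjusted p under 0.05, against 21 without the covariate. For Vehicle against WT the same covariate left 11 members higher and 1 lower, where 2396 of all 13510 genes were higher and 3452 lower. Hspa5 no longer passed in that fit (limma adjusted p = 0.0958).

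Scl-Ab against WT found 5 of 33 members higher and 0 lower, where 19.8% of all genes were called higher and 30.5% lower. At an unadjusted p under 0.05, 10 members passed, and an exact permutation test over all genes called 3 higher and 0 lower. The 5 were Os9, Hspa13, Edem1, Trib3 and Sdf2l1. The members' median log2 fold change was 0.06, against -0.06 over all genes. With TMM scaling 13 members were higher and the share of higher among all calls moved from 39.4% to 51.9%; with GC and length trends removed 9 were higher and the share was 51.0%. This comparison shares the WT libraries with the first and the Scl-Ab libraries with the second.

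**Figure D2:**
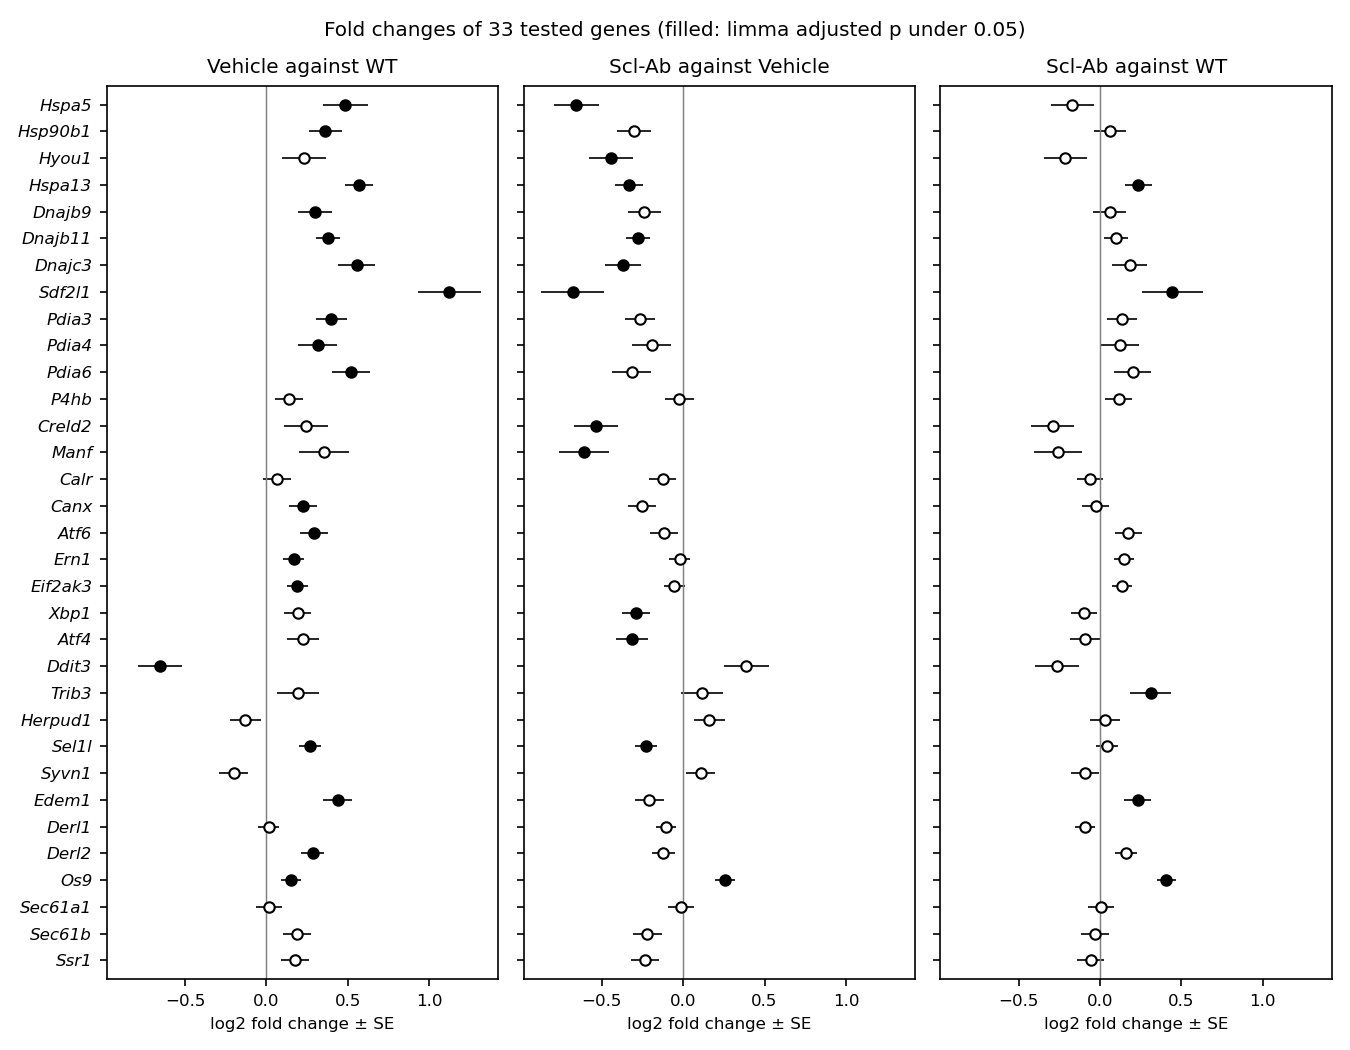
Log2 fold change (horizontal axis, point) ± SE (bar) of the 33 tested genes, ordered by role, in the 3 comparisons, with filled points for a limma adjusted p under 0.05. Most points lie right of 0 for Vehicle against WT (30 of 33) and left of 0 for Scl-Ab against Vehicle (28 of 33), and Ddit3 lies on the other side in both.

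Chaperones of the HSP70 and HSP90 families were higher in Vehicle than in WT for 3 of 4 genes and lower in Scl-Ab than in Vehicle for 3 of 4. Hspa5 encodes BiP, the main HSP70 of the ER and the partner of the sensors (GRCm38 chromosome 2, 34771970 to 34777547). Its lowest, median and highest values were 166, 210.2 and 369 in WT, 236, 309 and 435 in Vehicle, and 144, 201 and 286 in Scl-Ab. The groups overlapped, but all 9 Vehicle libraries lay above the WT median and all 10 Scl-Ab libraries lay below the Vehicle median. The log2 fold change was 0.49 ± 0.14 (SE) for Vehicle against WT (1.40-fold, limma adjusted p = 0.00387). For Scl-Ab against Vehicle it was -0.66 ± 0.14 (SE), 0.634-fold (limma adjusted p = 0.00623), and for Scl-Ab against WT -0.17 ± 0.13 (SE, limma adjusted p = 0.288).

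Hyou1, a large HSP70 relative that exchanges nucleotide on BiP, had values of 19.2, 22.2 and 40.1 in WT (lowest, median, highest), 21.2, 25.3 and 38.4 in Vehicle, and 15, 20.8 and 30.05 in Scl-Ab. It did not pass between Vehicle and WT (0.23 ± 0.13, log2 ± SE, limma adjusted p = 0.15) and was lower in Scl-Ab than in Vehicle (-0.44 ± 0.13, limma adjusted p = 0.0418), with 9 of 10 Scl-Ab libraries under the Vehicle median. Hspa13, a small HSP70-like protein of the ER, ran 9.17, 10.2 and 11.8 in WT, 13.2, 15.3 and 19.5 in Vehicle, and 8.33, 12.5 and 15.8 in Scl-Ab. It was the member whose Vehicle and WT values did not overlap (1 of 34 members), where 7.81% of all tested genes had every Vehicle library above every WT library. Hspa13 rose by a log2 of 0.57 ± 0.09 (SE) in Vehicle (1.48-fold, limma adjusted p = 2.77e-06), was lower in Scl-Ab than in Vehicle (-0.33 ± 0.09, limma adjusted p = 0.0192) and was above WT in Scl-Ab (0.24 ± 0.08, limma adjusted p = 0.019). Hsp90b1 (GRP94), the HSP90 of the ER, had means of 242 ± 25.1 (SD, n = 10) in WT, 314 ± 49.3 (SD, n = 9) in Vehicle and 256 ± 49.3 (SD, n = 10) in Scl-Ab. It was higher in Vehicle (0.36 ± 0.10, log2 ± SE, limma adjusted p = 0.00413), and its difference between Scl-Ab and Vehicle did not pass (-0.30 ± 0.10, limma adjusted p = 0.0659).

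Co-chaperones, the J-domain proteins and their partner that load clients on BiP, were higher in Vehicle than in WT for 4 of 4 genes and lower in Scl-Ab than in Vehicle for 3 of 4. Sdf2l1, which works with J-domain proteins to keep clients soluble, had the largest rise of the set. Its lowest, median and highest values were 3.20, 5.69 and 16.5 in WT, 9.13, 13.1 and 20.6 in Vehicle, and 5.55, 9.04 and 15.8 in Scl-Ab. The WT library at 16.5 was replicate 24, the next highest WT value was 8.74, and the Vehicle and WT values overlapped. The log2 fold change was 1.12 ± 0.19 (SE) for Vehicle against WT (2.18-fold, limma adjusted p = 1.94e-05), -0.68 ± 0.19 for Scl-Ab against Vehicle (limma adjusted p = 0.0311) and 0.44 ± 0.19 for Scl-Ab against WT (limma adjusted p = 0.0496).

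Dnajc3 (p58IPK), a co-chaperone that also restrains PERK, ran 31, 35.1 and 47.3 in WT, 44.9, 51.9 and 66.8 in Vehicle, and 24.5, 43.2 and 51.8 in Scl-Ab. It was higher in Vehicle than in WT (0.55 ± 0.11, log2 ± SE, 1.47-fold, limma adjusted p = 0.000137) and lower in Scl-Ab than in Vehicle (-0.37 ± 0.11, limma adjusted p = 0.0389). All 10 Scl-Ab libraries were under the Vehicle median. Dnajb11 (ERdj3), a J-domain protein that binds unfolded clients with BiP, ran 34, 38.0 and 50.3 in WT, 41.5, 51.3 and 59.3 in Vehicle, and 33.3, 40.9 and 50.8 in Scl-Ab. Dnajb11 was higher in Vehicle (0.38 ± 0.07, limma adjusted p = 0.000105) and lower in Scl-Ab than in Vehicle (-0.28 ± 0.07, limma adjusted p = 0.0227), with the groups overlapping in both comparisons. Dnajb9 (ERdj4), a J-domain protein that brings BiP to IRE1-alpha, had means of 24.5 ± 4.20 (SD, n = 10) in WT, 30.3 ± 4.45 (SD, n = 9) in Vehicle and 25.6 ± 4.25 (SD, n = 10) in Scl-Ab. It was higher in Vehicle (0.30 ± 0.10, log2 ± SE, limma adjusted p = 0.0168), and its difference with Scl-Ab did not pass (-0.24 ± 0.10, limma adjusted p = 0.146).

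Disulfide isomerases and other folding factors were higher in Vehicle than in WT for 3 of 6 genes. They were lower in Scl-Ab than in Vehicle for 2 of 6, and no gene was called in both comparisons. The log2 difference was above 0 for 6 of 6 in the first comparison and for 0 of 6 in the second. No test compared these genes with each other. The isomerases Pdia3, Pdia4 and Pdia6, which form and reshuffle disulfide bonds, were the 3 called in the first comparison. Pdia6 ran 66.7, 76.7 and 105 in WT, 87.2, 114 and 144 in Vehicle, and 58.5, 90.7 and 135 in Scl-Ab, and its log2 fold change for Vehicle against WT was 0.52 ± 0.12 (SE, 1.43-fold, limma adjusted p = 0.000544). Pdia3, the partner of the lectin chaperones, rose by a log2 of 0.40 ± 0.09 (SE, limma adjusted p = 0.000674) and Pdia4 by 0.32 ± 0.12 (SE, limma adjusted p = 0.0272). None of the 3 passed between Scl-Ab and Vehicle, where their log2 differences were -0.26, -0.19 and -0.32 for Pdia3, Pdia4 and Pdia6. P4hb, the classical isomerase that is also a subunit of collagen prolyl hydroxylase, was at 270.2 ± 14.3 (SD, n = 10) in WT, 299 ± 36.9 (SD, n = 9) in Vehicle and 297 ± 60.8 (SD, n = 10) in Scl-Ab and passed in no comparison.

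Creld2 and Manf, both small ER proteins that stressed cells can secrete, were the members of this class that were lower with Scl-Ab. Manf ran 60.8, 69.8 and 156 in WT, 68.0, 99.0 and 137 in Vehicle, and 49.8, 63.3 and 88.3 in Scl-Ab. Its log2 fold change for Scl-Ab against Vehicle was -0.61 ± 0.15 (SE, 0.655-fold, limma adjusted p = 0.0175), and for Vehicle against WT it was 0.35 ± 0.15 (SE), which did not pass (limma adjusted p = 0.052). All 10 Scl-Ab libraries lay under the Vehicle median, while the highest value of all was the WT library, replicate 24. Creld2 ran 22.3, 24.4 and 46.6 in WT, 23.7, 32.9 and 44.1 in Vehicle, and 17.4, 20.8 and 31.5 in Scl-Ab. It was lower in Scl-Ab than in Vehicle (-0.53 ± 0.13, log2 ± SE, 0.690-fold, limma adjusted p = 0.0176), again in 10 of 10 libraries against the Vehicle median, and did not pass between Vehicle and WT (0.24 ± 0.13, limma adjusted p = 0.128).

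The lectin chaperones Calr and Canx hold glycoproteins by their sugar chains. Calr had the highest level of the set on the length-scaled values, at 341 ± 33.3 (SD, n = 10) in WT, 357 ± 42.1 (SD, n = 9) in Vehicle and 328 ± 48.1 (SD, n = 10) in Scl-Ab, and passed in no comparison. Canx was higher in Vehicle than in WT (0.22 ± 0.09, log2 ± SE, limma adjusted p = 0.0309), and its difference between Scl-Ab and Vehicle did not pass (-0.25 ± 0.09, limma adjusted p = 0.0701). The log2 differences of Calr had the same signs, 0.06 and -0.13, and no test of Canx against Calr was run. Both promoters hold the ER stress response element printed above.

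The sensors were higher in Vehicle than in WT for 3 of 3 genes, by small amounts. Atf6 had means of 10.5 ± 0.765 (SD, n = 10) in WT and 13.1 ± 1.50 (SD, n = 9) in Vehicle (log2 0.29 ± 0.08, SE, limma adjusted p = 0.00518). The rise was 0.19 ± 0.06 (SE, limma adjusted p = 0.0143) for Eif2ak3 and 0.17 ± 0.06 (SE, limma adjusted p = 0.0281) for Ern1. None passed between Scl-Ab and Vehicle, where the log2 differences were -0.12, -0.06 and -0.02 for Atf6, Eif2ak3 and Ern1, each with an SE of 0.06 to 0.08.

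The transcription factors and the feedback gene did not move as 1 group: between Vehicle and WT, 1 of 4 was lower and 3 did not pass, and between Scl-Ab and Vehicle 2 of 4 were lower. Ddit3 (CHOP) ran 29.4, 41.5 and 47.8 in WT, 17.1, 24.2 and 31.9 in Vehicle, and 22.8, 30.2 and 53.1 in Scl-Ab. The groups overlapped, and all 9 Vehicle libraries lay below the WT median. Ddit3 fell by a log2 of 0.65 ± 0.14 (SE) in Vehicle against WT (0.636-fold, limma adjusted p = 0.000214), while the log2 fold change was 0.39 ± 0.14 for Scl-Ab against Vehicle (limma adjusted p = 0.0734) and -0.26 ± 0.13 for Scl-Ab against WT (limma adjusted p = 0.0963). The Ddit3 locus overlaps Mars in the annotation and its symbol has 2 gene identifiers, so some of its reads could belong to a neighbour.

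Xbp1, the factor made active by IRE1-alpha, ran 73.1, 79.2 and 134 in WT, 86.0, 96.3 and 112 in Vehicle, and 68.4, 76.7 and 97.5 in Scl-Ab. It was lower in Scl-Ab than in Vehicle (-0.29 ± 0.08, log2 ± SE, 0.818-fold, limma adjusted p = 0.0334) and did not pass between Vehicle and WT (0.19 ± 0.08, limma adjusted p = 0.0541), although all 9 Vehicle libraries were above the WT median. Atf4, whose activity is set mostly by translation, ran 92.6, 104 and 139 in WT, 94.0, 131 and 159 in Vehicle, and 75.8, 104 and 136 in Scl-Ab. Atf4 was lower in Scl-Ab than in Vehicle (-0.31 ± 0.10, log2 ± SE, limma adjusted p = 0.0481) and did not pass between Vehicle and WT (0.22 ± 0.10, limma adjusted p = 0.0558). Trib3, a pseudokinase induced by ATF4 and CHOP, was low everywhere, at 1.59 ± 0.415 (SD, n = 10) in WT, 1.98 ± 0.527 (SD, n = 9) in Vehicle and 2.27 ± 0.801 (SD, n = 10) in Scl-Ab. It passed only between Scl-Ab and WT among the 3 comparisons (0.31 ± 0.13, log2 ± SE, limma adjusted p = 0.0407).

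**Figure D3:**
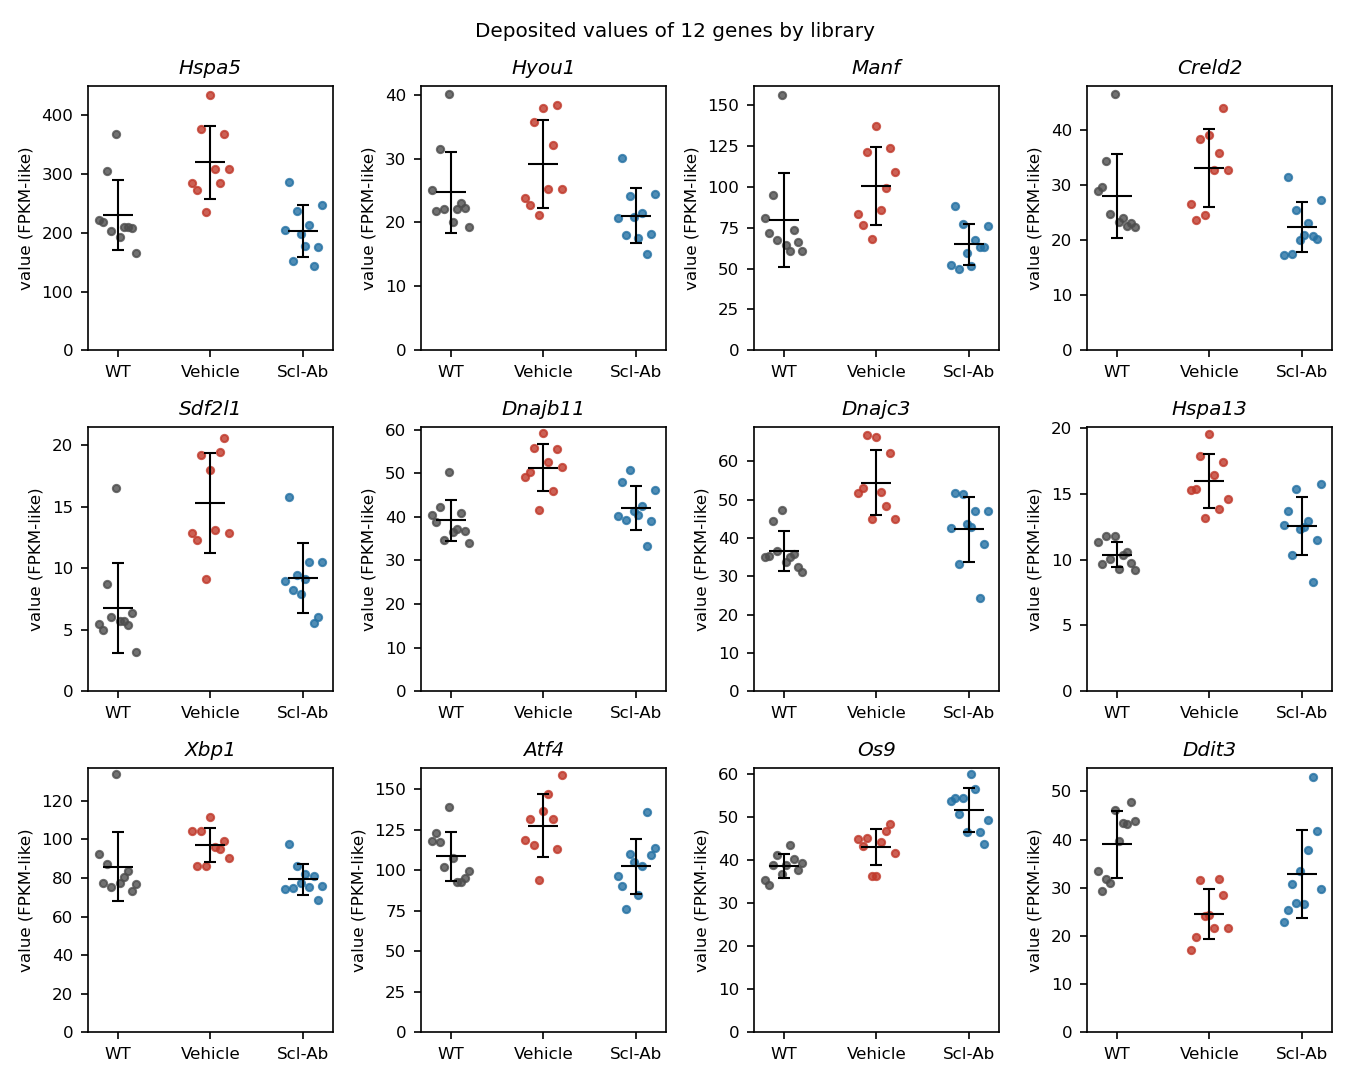
Deposited values (vertical axis, FPKM-like, starting at 0) of 12 genes in each library (points) of the WT, Vehicle and Scl-Ab groups, with the mean (dash) and SD (bar). The Vehicle mean is the highest for 10 of the 12 genes, while for Ddit3 it is the lowest and for Os9 the Scl-Ab points sit highest, from 43.8 to 60.0.

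Genes of ER-associated degradation, which recognise misfolded proteins and pass them to the proteasome, were higher in Vehicle than in WT for 4 of 7 tested: Edem1, Derl2, Sel1l and Os9. Os9, the lectin that presents glycoproteins to the ligase complex, was the member that was higher with Scl-Ab. It ran 34.1, 38.8 and 43.5 in WT, 36.3, 44.2 and 48.3 in Vehicle, and 43.8, 52.1 and 60.0 in Scl-Ab. No Scl-Ab library overlapped WT (1 of 34 members), where 5.74% of all tested genes had every Scl-Ab library above every WT library. Of the 10 Scl-Ab libraries 9 were above the Vehicle median. The log2 fold change of Os9 was 0.15 ± 0.06 (SE) for Vehicle against WT (limma adjusted p = 0.0414), 0.26 ± 0.06 for Scl-Ab against Vehicle (limma adjusted p = 0.0133) and 0.41 ± 0.06 for Scl-Ab against WT (limma adjusted p = 1.99e-06).

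Sel1l, the scaffold of that ligase complex, ran 25.1, 27.7 and 28.9 in WT, 28.1, 31.5 and 40.0 in Vehicle, and 21.4, 29.2 and 31.5 in Scl-Ab. It was higher in Vehicle than in WT (0.27 ± 0.07, log2 ± SE, limma adjusted p = 0.00172) and lower in Scl-Ab than in Vehicle (-0.23 ± 0.07, limma adjusted p = 0.0417), so Sel1l and Os9, partners in the complex, differed in direction with Scl-Ab. Edem1, which trims mannose from misfolded glycoproteins, was higher than in WT in Vehicle (0.44 ± 0.09, limma adjusted p = 0.000133) and in Scl-Ab (0.23 ± 0.09, limma adjusted p = 0.0256). Derl2, a channel subunit, was higher in Vehicle (0.28 ± 0.07, limma adjusted p = 0.00123). Syvn1, the ubiquitin ligase of the complex, Herpud1, which recruits it, and Derl1 passed in no comparison. Syvn1 and Herpud1 differed from most of the set in sign: their log2 differences for Vehicle against WT were -0.20 ± 0.09 (SE, limma adjusted p = 0.0557) and -0.13 ± 0.10 (SE, limma adjusted p = 0.258).

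The translocon genes, which make up the channel for nascent chains and its partners, passed in no comparison (0 of 3 each time). Their median log2 difference was 0.18 for Vehicle against WT and -0.22 for Scl-Ab against Vehicle. Sec61a1, the channel itself, had a log2 difference of 0.02 ± 0.08 (SE) for Vehicle against WT and -0.01 ± 0.08 for Scl-Ab against Vehicle. Sec61b and Ssr1 had -0.22 ± 0.09 and -0.23 ± 0.09 for Scl-Ab against Vehicle (limma adjusted p = 0.113 and 0.0869).

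Genes with the ER stress response element in the promoter were not all called alike. Of the 8 tested, 5 were higher in Vehicle than in WT (median log2 0.30) and 3 were lower in Scl-Ab than in Vehicle (median -0.31). Of the 19 members with a promoter but without it, 11 were higher and 1 lower in Vehicle (median 0.20), and 1 was higher and 5 lower with Scl-Ab (median -0.21). Of the other 26 genes with the element in all promoters, 7 were tested, and 1 was higher and 3 lower in Vehicle, and 0 higher and 1 lower with Scl-Ab. No test of the difference between these groups was run.

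Across levels, the set covered a wide range on the length-scaled values. Calr, P4hb, Hsp90b1, Pdia3 and Hspa5 led, and Derl3 and Trib3 stood last. The median coefficient of variation over the 34 genes was 12.6% in WT, 13.9% in Vehicle and 17.6% in Scl-Ab.

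Other cell types moved with Vehicle against WT, and their part in the members' differences was not tested. Macrophage markers were higher for 14 of 15 genes, and their summed value ran from 125 to 417 in WT, from 1161 to 3578 in Vehicle and from 915 to 2163 in Scl-Ab. Plasma cells carry an expanded ER and high chaperone levels. Plasma cell markers were higher for 7 of 7 tested of 17, with sums of 18.8 to 34 in WT, 49.2 to 399 in Vehicle and 46.0 to 134 in Scl-Ab, and 10 of the 17 markers had a median under 1 in Vehicle. Jchain had a median of 0.0723 in WT, 1.66 in Vehicle and 2.31 in Scl-Ab. The Vehicle library with the highest plasma cell sum was replicate 6, and no relation of the members with that sum was computed.

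Smooth muscle markers were lower in Vehicle for 11 of 12 genes (sums of 22349 to 26084 in WT, 6050 to 19629 in Vehicle and 6851 to 16477 in Scl-Ab), and fibroblast markers were higher for 9 of 12 (3124 to 4147 in WT, 5263 to 8818 in Vehicle and 4507 to 10637 in Scl-Ab). Between Scl-Ab and Vehicle, 0 of 15 macrophage, 0 of 7 plasma cell and 0 of 12 fibroblast markers passed in either direction. In that comparison 1 of 12 smooth muscle markers was lower (Synpo2) and 3 of 10 endothelial markers were lower, led by Pecam1 (-0.67 ± 0.16, log2 ± SE, limma adjusted p = 0.0127). Endothelial markers were higher in Vehicle than in WT for 6 of 10, led by Emcn, with sums of 139 to 239 in WT, 232 to 303 in Vehicle and 129.9 to 288 in Scl-Ab. Heart muscle markers were lower in Vehicle than in WT for 1 of 10 (Ryr2) and higher with Scl-Ab than with Vehicle for 1 of 10 (Nppa). Between Scl-Ab and Vehicle all 10 had a log2 fold change above 0 (median 1.97), and 8 had a limma unadjusted p under 0.05. Their sums were 38.3 to 551 in WT, 39.8 to 565 in Vehicle and 60.9 to 1181 in Scl-Ab, and their part in the members' differences was not tested. Adipocyte markers passed for 0 of 10 in both of these comparisons, with sums of 454 to 2606 in WT, 467 to 7781 in Vehicle and 679 to 6780 in Scl-Ab.

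Neighbouring lists of the same pathway were scored beside the members. Among 28 other folding enzymes and chaperones of the ER, 10 were higher and 3 lower in Vehicle than in WT, led by the isomerase Pdia5 (0.64 ± 0.12, log2 ± SE, limma adjusted p = 8.19e-05) and by Selenom among the falls (-0.58 ± 0.09, limma adjusted p = 5.12e-06). With Scl-Ab against Vehicle, 0 were higher and 3 lower, led by Tmx3 (-0.19 ± 0.05, limma adjusted p = 0.0244). Of 28 other degradation genes, 5 were higher and 9 lower in Vehicle (Ube2g2 and Tmub1 had the smallest p in each direction), and 0 were higher and 3 lower with Scl-Ab. Of 27 tested translocation and glycosylation genes, 8 were higher and 3 lower in Vehicle (led by Spcs3 and Srp68), and 0 were higher and 6 lower with Scl-Ab, led by the signal peptidase subunit Sec11c (-0.22 ± 0.05, limma adjusted p = 0.0185).

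Of 17 collagen chaperones and modifying enzymes, 7 were higher and 0 lower in Vehicle, led by the prolyl hydroxylase subunit P4ha3 at 3.40 ± 1.18 (SD, n = 9) against 0.128 ± 0.0846 in WT (SD, n = 10), and 1 was higher with Scl-Ab, Plod1 (0.24 ± 0.06, log2 ± SE, limma adjusted p = 0.0111). Of 28 ER-to-Golgi transport genes, 11 were higher and 4 lower in Vehicle (led by Lman1 and Sec24c), and 0 were higher and 1 lower with Scl-Ab, Arf4. Of 12 other stress transducers, 1 was higher (Mbtps2) and 3 lower (led by Atf6b) in Vehicle, and 0 passed with Scl-Ab.

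Targets of the integrated stress response, to which PERK and ATF4 belong, held more rises than falls in Vehicle against WT. Their median log2 fold change there was 0.10, where 22.7% of all genes tested were called higher and 31% lower. Of 35 tested, 15 were higher and 4 lower in Vehicle than in WT, led by the serine synthesis enzyme Psat1 (0.70 ± 0.10, log2 ± SE, limma adjusted p = 2.58e-06) and by Vldlr among the falls (-0.74 ± 0.09, limma adjusted p = 1.53e-07). With Scl-Ab against Vehicle 1 was higher, Phgdh (0.42 ± 0.13, limma adjusted p = 0.0491), and 0 were lower.

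Within groups, few members followed the Dbp and Arntl index. Relations were computed for 33 genes in 3 groups (99 in all), with two-sided permutation p-values adjusted over the 99. In Vehicle (n = 9, exact) 0 of 33 passed, 20 of 33 had a negative r and the median r was -0.07, where 51.3% of all genes had a negative r. Without the 2 Vehicle libraries farthest from the median index, 7 of 33 were negative and the median r was 0.24, so the sign of the Vehicle relations rests on those libraries. In Scl-Ab (n = 10, 100000 resamples) 28 of 33 had a negative r and the median was -0.42, where 47.8% of all genes had a negative r. The relation that passed in Scl-Ab was that of Eif2ak3, with Pearson's r = -0.887 (permutation p = 0.00097, adjusted 0.0439) and Spearman's rho = -0.903 (permutation p = 0.00081, adjusted 0.0401), and r was -0.868 without the 2 libraries farthest from the median index. The index of the Scl-Ab libraries is split by title code range (3.75 to 5.28 in codes 12 to 15, 5.88 to 6.62 in codes 27 to 33), and Eif2ak3 differed between those ranges by a log2 of -0.23 ± 0.08 (SE, limma unadjusted p = 0.00914, adjusted 0.397), so the index and the range cannot be told apart there.

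WT libraries fell into a set of 3 with an index of 0.657 to 1.42 and a set of 7 above 4. The 3 had the lowest title code numbers of WT. Within the 7 the index rose with each title code number, from 4.20 in replicate 23 to 7.34 in replicate 29. Index and title code number therefore cannot be told apart in the 7. Over all 10, Eif2ak3 (negative) and Herpud1 (positive) passed, but those relations span the gap. Within the 7, Eif2ak3 had r = -0.890 (exact permutation p = 0.0216, adjusted over 33 relations 0.423) and rho = -0.929 (exact permutation p = 0.00675, adjusted 0.203). Within the 7, Herpud1 had r = 0.754 (exact permutation p = 0.0518, adjusted 0.423) and rho = 0.643 (exact permutation p = 0.139, adjusted 0.486), and 0 of 33 relations passed. Ddit3 had a positive r with the index in each group that did not pass the adjustment: it was 0.640 in Vehicle (exact permutation p = 0.0674, adjusted 0.371), 0.810 in Scl-Ab (permutation p = 0.00487, adjusted 0.0964) and 0.655 in the 7 WT libraries (exact permutation p = 0.0712, adjusted 0.423). Spearman's rho of Ddit3 was 0.50, 0.855 and 0.536 in the same order (permutation p = 0.178, 0.00313 and 0.236, exact where n is under 10; adjusted 0.458, 0.0775 and 0.486).

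Hspa5 gave r = -0.139 in Vehicle (exact permutation p = 0.718, adjusted 0.867), -0.557 in Scl-Ab (permutation p = 0.0968, adjusted 0.416) and -0.488 in the 7 WT libraries (exact permutation p = 0.271, adjusted 0.487), with rho of -0.0333, -0.527 and -0.286 (permutation p = 0.948, 0.124 and 0.556, exact where n is under 10; adjusted 1, 0.455 and 0.727). Without the 2 farthest libraries its r was 0.185 in Vehicle and -0.297 in Scl-Ab. The Vehicle and Scl-Ab indices meet only between 3.75 and 4.30. In that span Hspa5 was 377 and 236 in Vehicle replicates 3 and 4, and 205 and 286 in Scl-Ab replicates 10 and 11. The Vehicle library with the lowest index, replicate 5 at -1.40, had the highest Hspa5, 435, while replicate 3 with the highest index of the group, 4.30, had the next, 377. Clock genes themselves moved as lists between Scl-Ab and Vehicle: 4 of 4 of the activator phase were lower, led by Npas2, and 6 of 10 of the Dbp phase were higher, led by Per3. Between Vehicle and WT 3 of 4 were higher, led by Nfil3, and 8 of 10 lower, led by Hlf.

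**Figure D4:**
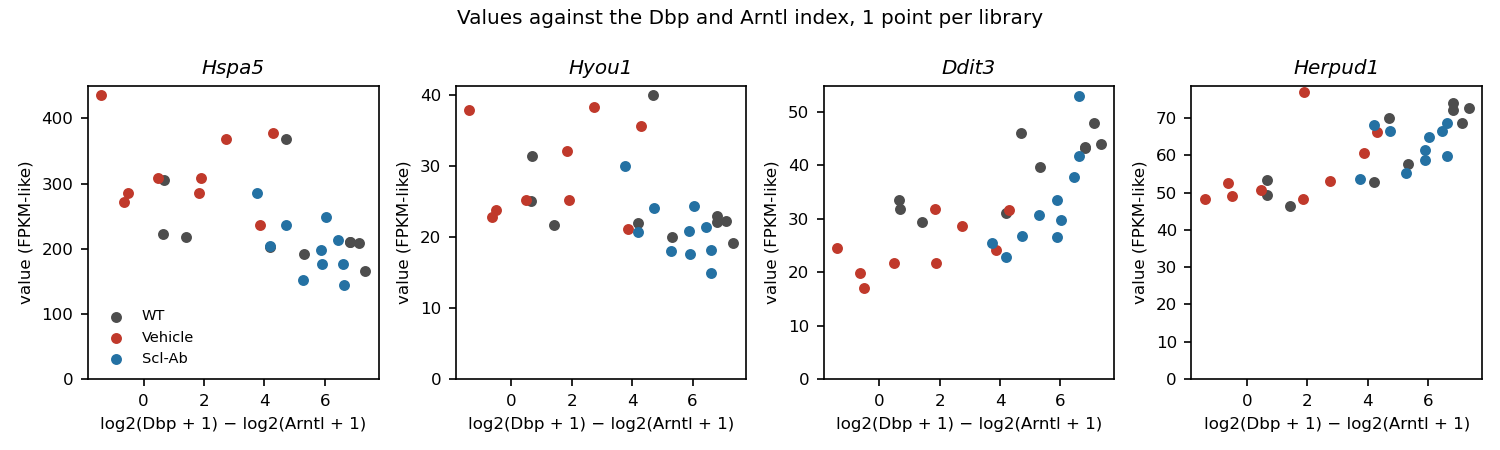
Deposited values (vertical axis, FPKM-like, starting at 0) of Hspa5, Hyou1, Ddit3 and Herpud1 against the index log2(Dbp + 1) minus log2(Arntl + 1) (horizontal axis), 1 point per library, coloured by group. Vehicle points lie at indices of -1.40 to 4.30 and Scl-Ab points at 3.75 to 6.62, so the groups share little of the axis.

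Title code ranges gave unequal results for Scl-Ab against Vehicle. In 1 limma fit over the ApoE KO libraries, within codes 27 to 33 (5 Vehicle and 6 Scl-Ab libraries) 0 members were higher and 4 lower. The 4 were Hspa5, Manf, Creld2 and Sdf2l1, where 175 of all 13510 genes passed in either direction. The median log2 difference of the 33 was -0.31. Hspa5 had a lowest, median and highest value of 285, 309 and 435 in Vehicle and 144, 187 and 248 in Scl-Ab there. Within codes 12 to 15 (4 and 4 libraries) 0 of 33 members and 0 of all genes passed by limma, the median was -0.12 and 2 members had an unadjusted p under 0.05. Hspa5 ran 236, 279 and 377 in Vehicle and 151, 221 and 286 in Scl-Ab there. The difference between the 2 effects, tested as an interaction, passed for 0 of 33 members and had an unadjusted p under 0.05 for 1, and its median was -0.19 with 30 of 33 below 0. With the range as a covariate, 5 members were lower and 0 higher. In codes 27 to 33 the Dbp and Arntl index ran from -1.40 to 2.74 in Vehicle and from 5.88 to 6.62 in Scl-Ab. In codes 12 to 15 it ran from -0.637 to 4.30 in Vehicle and from 3.75 to 5.28 in Scl-Ab. The part of the index in the unequal results was not tested.

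Single libraries decided some calls. For Scl-Ab against Vehicle, leaving out 1 library at a time gave 6 members called without Vehicle replicate 5, 7 without Vehicle replicate 3, Vehicle replicate 6, Scl-Ab replicate 12 or Scl-Ab replicate 18, and up to 18 without Scl-Ab replicate 13. Hspa5, Manf, Creld2, Dnajb11, Hspa13 and Os9 passed in all 19 of these fits. Sdf2l1 and Xbp1 passed in 14, Dnajc3 in 11, Sel1l in 10, Hyou1 in 8 and Atf4 in 7, with highest limma adjusted p-values of 0.059, 0.0697, 0.0791, 0.087, 0.0856 and 0.0942. For Vehicle against WT, 15 of the 19 called members passed in all 19 fits, and Pdia4, Canx, Ern1 and Os9 in 16, 14, 14 and 7. For Scl-Ab against WT, Os9 and Hspa13 passed in all 20 fits, Edem1 in 18, Trib3 in 11 and Sdf2l1 in 4. Without Scl-Ab replicate 17, 11 members were higher and 1 lower than in WT, and 3 were higher without Scl-Ab replicate 12, 13 or 15 or WT replicate 23 or 28.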

How the data were processed

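Stranded mRNA libraries of the aortic arch (29 libraries, 3 groups) were analysed from 1 deposited file each. The deposited values are FPKM-like, scaled by gene length and named FPKQ per the file headers, with no definition given. Among low values, 77.5 to 80.7% were whole multiples of a library's step to within 0.05 of a step, and the 85th percentile over genes was 6.99 to 7.30, so values appear scaled to an upper quantile. Genome build GRCm38 and DESeq2 1.10.1 are named, without roles, per the submitters' processing notes. Neither aligner nor counting method is stated: not given in the sources used here.

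The main test was limma (version 3.58.1, under R 4.3.3, with trend and robust options) on log2(value + 1), all libraries in 1 fit, Benjamini-Hochberg over 13510 genes, called under 0.05. Fold changes are on that scale and understate low genes. The fit was tested on simulated data. Members and lists were chosen with earlier results of these data known. Of the context and marker symbols, 8 were matched under another symbol and 1 was not matched. Genes described with full values are Hspa5, members called in Scl-Ab against Vehicle, and the 4 largest rises and falls among members called in Vehicle against WT, with the smallest p of each list. Alternatives were other pseudocounts (0.1, 0.5), filters (none, 5), TMM scaling (written out without count weights), equal totals, only the groups compared, exact permutation, the clock index or the title range as covariate, title ranges apart, and each library left out. Removal of GC and length trends, WT libraries with an index above 4, and a block on title code numbers shared by the ApoE KO groups were chosen after seeing the data. Gene positions are from GENCODE M21.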

Additional observations from a re-analysis of the deposited data

Results flagged for a closer look

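Of 111 gene and group combinations examined with Dixon's test for a value far from its group (34 members with Dbp, Arntl and Apoe, in 3 groups), 14 were marked, and chance marks about 1 in 20. WT replicate 24 gave 8, as the highest WT value: P4hb at 301 (next 277), Dnajb9 at 34.2 (next 26.7), Dnajb11 at 50.3 (next 42.2), Sdf2l1 at 16.5 (next 8.74), Creld2 at 46.6 (next 34.5), Manf at 156 (next 95.2), Xbp1 at 134 (next 92.6) and Derl3 at 1.06 (next 0.438). Without it, 23 members were higher and 1 lower in Vehicle than in WT.

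Scl-Ab replicate 17 gave 3: Atf6 was lowest at 7.06 (next 10.3), Syvn1 was highest at 22.8 (next 16.0) and Derl3 was highest at 1.43 (next 0.834). Sdf2l1 was high in Scl-Ab replicate 11 at 15.8 (next 10.5), Sec61b in Scl-Ab replicate 13 at 112 (next 88.2), and Derl2 in Vehicle replicate 5 at 27.4 (next 25.1).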

How the results depend on the processing

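No member called in a comparison changed direction under any alternative in which it was fitted. The groups share no replicate numbers. Of the title code numbers, 8 occur in both ApoE KO groups, but libraries with the same number did not deviate together (r over all genes from -0.540 to 0.618, above 0.1 in 2 of 8 pairs), so they were not treated as pairs. Over those 16 libraries, with the number as a block, 0 members were called (13 at an unadjusted p under 0.05), and 1 without the block. For Vehicle against WT, 19 members were called, 12 with the Dbp and Arntl index as covariate (11 higher, 1 lower), and 16 to 24 when 1 library was left out. For Scl-Ab against Vehicle, 12 were called, but 5 with no filter, 2 with equal totals, 5 with only these groups fitted, 6 by exact permutation, 0 with the index as covariate, 5 with the title range as covariate, 0 within codes 12 to 15 and 4 within 27 to 33. Leaving out 1 library gave 6 to 18. With equal totals the share of higher among all calls of that comparison moved from 35.4% to 65.0%.

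For Scl-Ab against WT, 5 were called, 2 with no filter, 13 with TMM scaling, 3 with only these groups, 3 by exact permutation, 8 with the index as covariate, 9 with GC and length trends removed, and 3 to 12 when 1 library was left out. Over all genes, counts for Scl-Ab against Vehicle fell from 1005 to 447 with no filter, 369 with equal totals and 309 with only these groups. They were 481 by exact permutation, 348 with the title range, and 7 and 180 over the 16 libraries with and without the block. With each range fitted on its own libraries they were 93 (codes 27 to 33) and 0 (codes 12 to 15). With the index 3 genes were called. Of the 99 relations with the index 3 were called, 1 with Dbp alone, 0 without the 2 farthest libraries and 1 when WT was limited to libraries above 4 (that of Eif2ak3 in Scl-Ab, with 0 in WT). The causes of these changes were not tested. Genes near the filter, such as Trib3 and Derl3, rest on few fragments.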

Other observations

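After subtraction of each group mean, the non-member gene most like Hspa5 over the 29 libraries was Stip1, the co-chaperone that links HSP70 and HSP90 (r = 0.867), and the 10 most alike also held Hspa8 (0.863), the constitutive cytosolic HSP70, and Ahsa1 (0.856), an activator of HSP90. The others were Palld, Cltc, C1galt1c1, Hnrnpc, Selenos, Magt1 and Sec23b, down to 0.839. These are correlations over libraries that share groups and depth, given as a description. Stip1 followed Hspa5 in each group, with r of 0.987 in WT, 0.874 in Vehicle and 0.788 in Scl-Ab. In WT the highest Hspa5 was that of replicate 24, at 369 (next 305), and no r without that library was computed. Of the 22 cytosolic and mitochondrial heat shock genes listed, 21 had r above 0 with Hspa5, the median was 0.549 (from -0.111 to 0.867) and 5 were among the 100 most alike.

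Among the members, Hyou1 was closest to Hspa5 (r = 0.939), and 13 of the 32 others were among the 100 most alike of 13509 genes. Their median r was 0.711, against 0.0119 over all other genes. Ddit3 (-0.154), Trib3 (-0.201) and Herpud1 (-0.0627) were below 0, and Atf4 stood at 0.311. Of the heat shock genes, 2 were higher and 6 lower in Vehicle than in WT, with Hspa4l and Fkbp4 at the smallest p in each direction. With Scl-Ab against Vehicle 0 were higher and 1 lower, Hsph1 at 32.8 ± 9.87 (SD, n = 10) against 58.3 ± 22.9 (SD, n = 9), log2 -0.79 ± 0.23 (SE, limma adjusted p = 0.0347). Of the 2 cold-inducible genes, Cirbp was lower in Vehicle than in WT (-0.67 ± 0.18, log2 ± SE, limma adjusted p = 0.00219), and 0 passed with Scl-Ab.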
